A study of Mus musculus with 8 samples.

Results

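The response of the Tet1 knockout (KO) mouse kidney to ischemia was read from 4 of the 8 libraries of the series. KO-I/R 3D 1 and 2 came from kidneys 3 days after 45 min of ischemia, and KO-NI 1 and 2 from non-injured kidneys. The 4 libraries were chosen by the genotype and treatment in their labels, and the 4 WT libraries (WT-NI and WT-I/R 3D, 2 each) served to show where the KO response differed. All mice were female, of the strain C57BL/6 x 129S4/SvJae. KO mice were homozygous for a knockout allele of Tet1 (Tet1-/-) that is carried in every cell, immune cells included, and WT mice were Tet1+/+ littermates. In the injured groups the left renal pedicle was clamped and then released. Whether non-injured kidneys were taken from other mice or from the unclamped side is not stated in the sources, and no age is given for the sequenced mice. A library held the pooled RNA of 3 mice and a group the RNA of 6. A p-value here rests on the spread between the 2 pools of a group, taken over all groups, WT included. The spread between single mice was not measured. The values are FPKM, reads scaled to gene length and to a divisor of each library that was not its plain depth. The divisor was 0.808 and 0.878 times the library's reads in KO-NI and 1.10 and 1.13 times in KO-I/R 3D. In WT-NI it was 0.886 and 0.881 times the reads, and in WT-I/R 3D 1.04 and 1.05 times. Of 55919 listed genes, 15650 reached 1 FPKM in at least 2 of the 8 libraries and were tested.

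Clamping the renal artery starves the tubules of oxygen, and the proximal tubule, which lives on fatty acid oxidation and carries most transport, is the segment hit hardest. Surviving tubule cells lose their differentiated program, switch on injury markers such as Havcr1 (the gene of KIM-1) and Lcn2 (the gene of NGAL), secrete chemokines and enter the cell cycle, while monocytes and neutrophils are drawn in. TET1 is an enzyme that oxidises 5-methylcytosine to 5-hydroxymethylcytosine in DNA. In whole kidney RNA, fewer cells of a type and less RNA per cell cannot be told apart.

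The 8 libraries held 13961281 to 18480858 reads. Tet1 was listed at 0.551 and 0.382 FPKM in KO-NI and at 0.189 and 0.159 FPKM in KO-I/R 3D, below the filter, against 0.378 and 0.323 FPKM in WT-NI. These values cover the whole gene and do not check its deleted stretch. KO-NI 1 stood apart from KO-NI 2. Between these libraries 1804 of the tested genes differed by more than 2-fold, against 838 between the KO-I/R 3D libraries and 723 to 760 within the WT groups. Mitochondrial genes took 10.9% of the reads in KO-NI 1, 7.49% in KO-NI 2, and 6.23% and 4.76% in KO-I/R 3D. The results below were therefore also computed without either KO-NI library, and those values are given beside the lists and the main genes that depended on them.

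Injury changed a large part of the KO transcriptome. To be called, a gene had to pass limma's test at 0.05 after Benjamini-Hochberg adjustment with a log2 fold change beyond 0.5 in either direction, and by this rule 2808 genes (17.9% of those tested) rose and 3043 (19.4%) fell. Of the rises 1876 were 2-fold or more and 801 were 4-fold or more. Of the falls 1580 were 2-fold or more and 292 were 4-fold or more. No called gene had overlapping libraries, but both KO-I/R 3D libraries lay above both KO-NI libraries for 5092 genes (32.5%) and below them for 5464 (34.9%), so separation alone was common. Leaving out KO-I/R 3D 2 lowered the counts to 1471 and 1929. Scaling to TPM, where the values of every library sum to the same total, in place of the deposited scaling shifted the median of all genes from -0.01 to 0.38 and the split to 5076 higher and 1580 lower. Fold changes below are on the scale of log2(FPKM + 0.1), which understates the change of genes near 0, and the median over all genes tested was -0.01.

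The genes that rose most included the known markers of injured tubule epithelium. Havcr1, the phosphatidylserine receptor that tubule cells use to clear dead neighbours, was listed at 0.154 and 0.0315 FPKM in KO-NI (4 and 1 reads) and at 375 and 426 FPKM in KO-I/R 3D. Both injured libraries lay far above both non-injured ones, with a log2 fold change of 11.10 (SE 0.37, limma adjusted p = 0.000214). Timp1, an inhibitor of matrix metalloproteinases, rose from 0.0998 and 0.164 to 45.3 and 79.9 FPKM (log2 fold change 8.04, SE 0.40, limma adjusted p = 0.000333). Lcn2, an iron-carrier binding protein of injured tubules, rose from 1.96 and 3.53 to 77.5 and 137 FPKM (5.24, SE 0.37). S100a6, a calcium-binding protein of proliferating and injured epithelium, rose from 6.23 and 7.67 to 216 and 271 FPKM (5.11, SE 0.19). These 4 genes were called without KO-NI 1 and without KO-NI 2 alike.

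Several of the largest rises started from a listed level of 0 in both KO-NI libraries, so that their fitted fold change depends on the added 0.1 and is not quoted. Krt20, a keratin of urothelium and injured tubule, was listed at 24.2 and 34.02 FPKM after injury. Sprr2f and Sprr2g, small proline-rich proteins of stressed epithelium, reached 17.3 and 28.2 FPKM and 15.1 and 25.3 FPKM. Il1f6, the gene of the interleukin-1 family cytokine IL-36 alpha, reached 12.5 and 21.8 FPKM. In each of these genes the second injured library was the higher one. Of the 41 genes of a tubular injury and repair list, 39 were tested, 37 rose and none fell, with a median log2 fold change of 2.87 (2.67 without KO-NI 1 and 3.05 without KO-NI 2). A gene that passed the filter only through its injured libraries had to differ, so these counts and those of the other lists are descriptions. Each list count stands against the shares of all genes tested, 17.9% higher and 19.4% lower. Members of small counts that are named outside the rule for named genes were chosen after their values were seen. The 2 uncalled members were Prom1, a stem cell surface protein, and Krt7, a keratin of simple epithelium (log2 fold changes -0.17 and 0.26), and Prom1 was called lower without KO-NI 2 (-0.55). The values of each library for the main members, and the distance between KO-NI 1 and KO-NI 2, stand in the plot of levels by library.

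**Figure D1:**
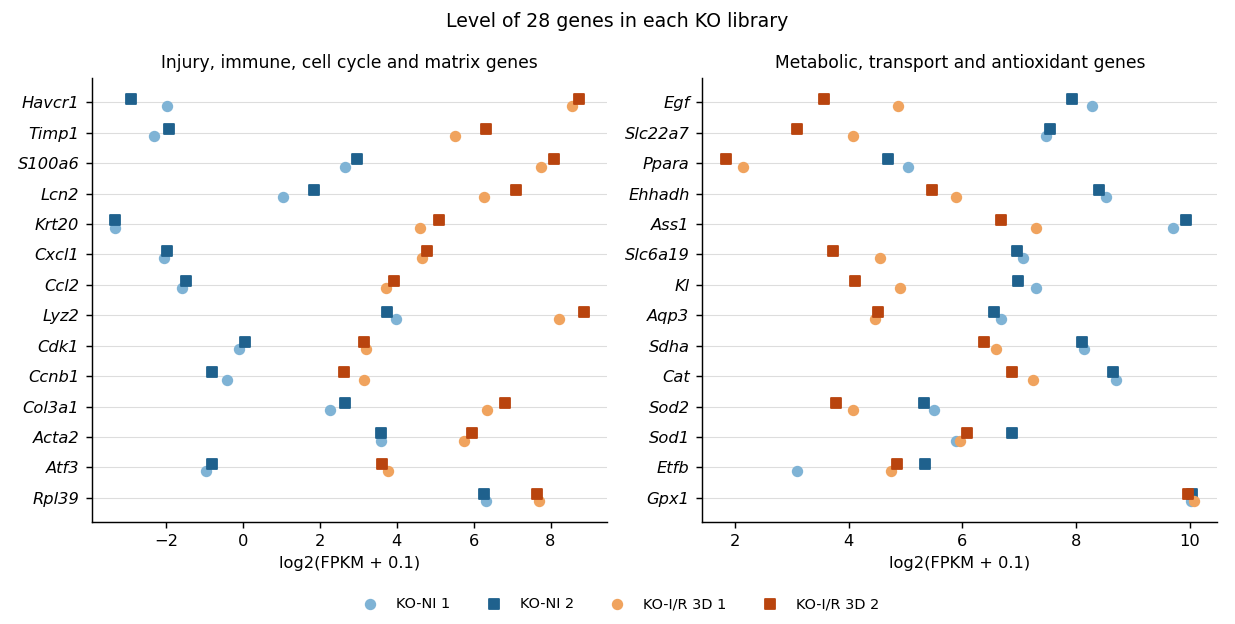
Level of 28 genes in each of the 4 KO libraries, as log2(FPKM + 0.1) on the horizontal axis, with 1 point for each library (blue for KO-NI, orange for KO-I/R 3D, circles for library 1 and squares for library 2). Havcr1 moved from 0.154 and 0.0315 FPKM to 375 and 426 FPKM, and Etfb and Sod1 show KO-NI 1 far from KO-NI 2.

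Chemokines, the signals that draw leukocytes into tissue, rose broadly, a pathway the study likewise picked on these samples, so that its direction is no independent evidence. Of 36 chemokine and chemokine receptor genes tested of 48 listed, 29 rose and none fell, with a median of 3.15 (3.18 without KO-NI 1). Cxcl1, which attracts neutrophils, rose from 0.142 and 0.155 to 25.3 and 27.7 FPKM (log2 fold change 6.74, SE 0.37, limma adjusted p = 0.000333). Ccl2, which attracts monocytes, rose from 0.234 and 0.256 to 13.2 and 15.2 FPKM (5.37, SE 0.30). Its receptor Ccr2 rose from 0.971 and 0.668 to 8.54 and 9.66 FPKM, so ligand and receptor were both higher in both injured libraries. Ccl6 rose from 1.09 and 1.58 to 14.8 and 16.9 FPKM, Ccl9 from 0.204 and 0.168 to 8.02 and 9.43 FPKM, and Ccl12 from 0.826 and 0.407 to 8.86 and 13.8 FPKM. Ccl7, Cxcl2 and Cxcl5 were listed at 0 in both KO-NI libraries and at 5.80 and 6.78, 6.85 and 13.2, and 5.08 and 7.86 FPKM after injury. Not all chemokines moved. Cxcl12, the stromal chemokine that holds cells in place, had a log2 fold change of -0.18 (SE 0.16, limma adjusted p = 0.418), and Ackr3, a scavenging receptor of Cxcl12, one of 0.24 (SE 0.11).

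Cytokine signalling and its early transcription factors moved with the chemokines. Of 41 interleukin, TNF and NF-kappa B genes tested of 51, 30 rose and none fell (median 1.94, and 1.57 without KO-NI 1). Il1rn, the natural antagonist of the interleukin-1 receptor, rose from 0 and 0.0132 to 5.48 and 5.43 FPKM. Lif, an interleukin-6 family cytokine, rose from 0.102 and 0.101 to 7.37 and 10.7 FPKM, and Osmr, the receptor subunit for oncostatin M, from 1.41 and 1.30 to 8.15 and 11.1 FPKM (2.72, SE 0.19, limma adjusted p = 0.00039). Nfkbiz, a nuclear co-factor of NF-kappa B, rose from 2.70 and 2.93 to 19.3 and 23.8 FPKM. The widely expressed receptors Tnfrsf1a and Il6st did not pass (log2 fold changes 0.48 and -0.01). Among immediate early and stress factors 13 of 23 rose and none fell, with 11 rises without KO-NI 1 and 16 without KO-NI 2, and the median moved from 1.65 to 1.22 without KO-NI 1. Atf3, a stress-induced repressor, rose from 0.412 and 0.474 to 13.4 and 12.2 FPKM (4.57, SE 0.29, limma adjusted p = 0.000367). Myc rose from 2.12 and 2.55 to 14.2 and 18.3 FPKM (2.74, SE 0.24).

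Markers of macrophages and monocytes rose in nearly the whole list. Of 31 tested of 33, 30 rose, and Csf1r, the colony-stimulating factor receptor, was the exception at 18.3 and 14.4 against 20.7 and 24.6 FPKM (0.47, SE 0.16, limma adjusted p = 0.0572). This exception depended on KO-NI 1, as the log2 fold change of Csf1r was 0.64 without KO-NI 1 and 0.30 without KO-NI 2. The summed level of the list was 241 and 261 FPKM before injury and 1419 and 2014 FPKM after it. Lyz2, the lysozyme of myeloid cells, rose from 15.8 and 13.2 to 296 and 466 FPKM (4.67, SE 0.24, limma adjusted p = 0.000333). Adgre1, the gene of F4/80, rose less, from 2.25 and 1.91 to 9.39 and 14.1 FPKM (2.42, SE 0.25). Mrc1, the mannose receptor, rose from 0.807 and 0.846 to 8.10 and 9.70 FPKM. The 7 neutrophil markers tested of 18 rose, with a summed level of 3.04 and 5.62 FPKM before injury and 25.4 and 30.4 FPKM after it. The neutrophil marker Ly6g itself was listed at 0 in all 4 KO libraries. S100a8, a calprotectin subunit, was at 1.02 and 0.525 against 5.54 and 4.36 FPKM.

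Lymphocyte and antigen presentation genes also rose. Of 10 dendritic cell markers 9 rose, and 5 without KO-I/R 3D 2. Of 16 lymphocyte markers tested of 28, 13 rose. Trbc2, a constant segment of the T cell receptor beta chain, rose from 0.641 and 0.632 to 9.12 and 12.3 FPKM (3.86, SE 0.26, limma adjusted p = 0.00039), and Nkg7, a granule protein of NK and cytotoxic T cells, from 0.485 and 0.478 to 3.89 and 5.25 FPKM. Cd3e, below the filter, was at 0.174 and 0.0357 against 0.717 and 0.800 FPKM. The summed lymphocyte level, 234 and 79.3 FPKM in KO-NI against 725 and 260 FPKM in KO-I/R 3D, was carried by Igkc, the kappa light chain, at 206 and 66.4 against 628 and 184 FPKM. Igkc was about 3 times higher in library 1 than in library 2 of both groups, was not called with all libraries (limma adjusted p = 0.105), and was called without KO-NI 1 (2.36, limma adjusted p = 0.0296). Of 18 class I and class II MHC genes, 15 rose (median 1.48) and the uncalled H2-Q6, H2-Q7 and H2-T23 had log2 fold changes of -0.71, 0.67 and 0.18. H2-Q7 was at 0.04 without KO-NI 1 and was called higher at 1.31 without KO-NI 2. H2-Aa, a class II chain, rose from 22.3 and 17.0 to 76.6 and 84.4 FPKM (2.04, SE 0.17), and B2m, the partner chain of class I, from 359 and 317 to 1037 and 918 FPKM (1.53, SE 0.14).

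Interferon-stimulated genes rose together, 34 of 39 tested with none lower (median 1.36, and 1.37 without KO-NI 1). Isg15, a ubiquitin-like modifier, rose from 5.30 and 5.29 to 19.0 and 23.4 FPKM (1.97, SE 0.15, limma adjusted p = 0.000413), and Oas2, a sensor of double-stranded RNA, from 1.89 and 2.01 to 8.36 and 9.59 FPKM (2.14, SE 0.16). Rsad2, an antiviral radical enzyme, stood out as uncalled at 11.4 and 6.15 against 6.59 and 6.47 FPKM. Rsad2 was called lower without KO-NI 2 (-0.80). Of 34 complement and coagulation genes tested of 40, 25 rose, and C8a and F5 fell. The count that fell was 4 without KO-NI 2 or KO-I/R 3D 1, and 1 without KO-I/R 3D 2. C1qb, a macrophage-made chain of the first complement component, rose from 16.9 and 18.2 to 112 and 178 FPKM (3.00, SE 0.22). C8a, a chain of the membrane attack complex, fell from 25.7 and 19.7 to 2.44 and 1.32 FPKM (-3.57, SE 0.29, limma adjusted p = 0.000442).

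Cell cycle genes rose in both injured libraries. Of 54 mitosis and G2/M genes tested of 55, 52 rose (median 2.29, 2.21 without KO-NI 1 and 2.49 without KO-NI 2), and 50 of these held without either KO-NI library. Ccnb1, the mitotic cyclin, rose from 0.652 and 0.467 to 8.82 and 6.12 FPKM (3.51, SE 0.28, limma adjusted p = 0.00043), and its kinase Cdk1 from 0.827 and 0.930 to 9.08 and 8.78 FPKM (3.21, SE 0.24). Mki67, the proliferation antigen Ki-67, rose from 1.07 and 1.72 to 13.7 and 11.2 FPKM (3.09, SE 0.31). All 3 were higher in KO-I/R 3D 1 than in KO-I/R 3D 2, unlike Lyz2 and C1qb. Spc25, a kinetochore protein, was the 1 member that fell (16.1 and 15.9 against 11.3 and 8.89 FPKM), and Pttg1, the securin, was uncalled. With TPM, or with only the KO libraries, no mitosis gene was called lower. Without KO-I/R 3D 2 no member of the list was called lower.

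The promoters of mitotic genes carry known elements, and 3 are shown because these genes rose and hold 1 or both of the elements below within 250 bases before and 50 after the start (RefSeq, GRCm38.p6, 5′ to 3′ on the gene's strand). Cdk1 and Ccnb2 hold both and Ccnb1 the CCAAT box. Capitals mark the cell cycle homology region TTTGAA and the CCAAT box, each on either strand, where the reverse forms read TTCAAA and ATTGG.
Cdk1 (chr10:69352863-69353162, minus strand): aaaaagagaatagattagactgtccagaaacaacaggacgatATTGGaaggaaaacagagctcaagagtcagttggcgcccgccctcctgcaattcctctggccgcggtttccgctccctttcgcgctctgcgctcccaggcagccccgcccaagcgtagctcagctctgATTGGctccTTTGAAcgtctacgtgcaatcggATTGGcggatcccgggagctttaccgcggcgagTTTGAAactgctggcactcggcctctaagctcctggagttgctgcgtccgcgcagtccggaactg
Ccnb1 (chr13:100786437-100786736, minus strand): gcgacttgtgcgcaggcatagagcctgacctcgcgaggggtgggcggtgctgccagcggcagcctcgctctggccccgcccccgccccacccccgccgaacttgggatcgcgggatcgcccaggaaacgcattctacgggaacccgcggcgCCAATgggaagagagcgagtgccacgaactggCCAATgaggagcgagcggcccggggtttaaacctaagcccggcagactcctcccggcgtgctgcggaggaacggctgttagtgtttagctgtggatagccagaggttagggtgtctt
Ccnb2 (chr9:70421505-70421804, minus strand): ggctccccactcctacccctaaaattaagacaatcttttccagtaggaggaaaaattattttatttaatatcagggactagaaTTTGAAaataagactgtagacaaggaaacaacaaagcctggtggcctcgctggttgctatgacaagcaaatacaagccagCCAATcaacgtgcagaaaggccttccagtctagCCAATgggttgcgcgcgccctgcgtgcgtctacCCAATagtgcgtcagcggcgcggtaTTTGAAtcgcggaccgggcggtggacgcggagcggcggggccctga

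Of the 52 mitosis genes that rose, 43 had a promoter in the RefSeq table. TTTGAA stood in 33 of them (76.7%), against 18.1% of all 27025 promoters of that length, and CCAAT in 34 (79.1%), against 37.9%. A match is a description of the letters and not a bound site.

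Genes of G1/S and DNA replication rose to a smaller degree, 35 of 44 tested (median 1.11), 31 without KO-NI 1. Pcna, the sliding clamp of DNA polymerase, rose from 18.9 and 19.2 to 39.6 and 38.6 FPKM (1.03, SE 0.12, limma adjusted p = 0.00101). Ccnd1, the cyclin that starts G1, was the 1 member that fell, from 62.8 and 68.7 to 23.7 and 22.8 FPKM (-1.50, SE 0.14, limma adjusted p = 0.000592), so Ccnd1 and Ccnb1 moved in opposite directions. A second member was called lower when KO-NI 1, KO-NI 2 or KO-I/R 3D 1 was left out. Of 29 p53 targets 15 rose and 4 fell, and without KO-I/R 3D 2 the counts were 8 and 1. Without KO-I/R 3D 1 the count that fell was also 1. Cdkn1a, the gene of the cell cycle inhibitor p21, rose from 1.52 and 2.81 to 14.3 and 17.9 FPKM (2.89, SE 0.29). The 4 that fell were Sesn2, Ei24, Zmat3 and Xpc (-0.80, -0.64, -0.59 and -0.54). With TPM, or with only the KO libraries, no p53 target was called lower.

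Among 32 cell death genes 16 rose and 2 fell, and 10 rose without KO-I/R 3D 2. Members of the lytic forms of death were among those that rose. Gsdmd, the pore former of pyroptosis, rose from 1.90 and 2.73 to 11.3 and 11.8 FPKM (2.29, SE 0.18, limma adjusted p = 0.000438). Ripk3 and Mlkl, the kinase and the pore protein of necroptosis, rose from 0.503 and 0.636 to 2.90 and 3.37 FPKM and from 1.19 and 0.633 to 4.63 and 5.57 FPKM. Bax, the mitochondrial pore protein of apoptosis, rose from 11.4 and 18.3 to 30.6 and 40.9 FPKM (1.28, SE 0.24). Bcl2, its inhibitor, stood at 3.39 and 2.50 against 2.09 and 2.15 FPKM (-0.44, SE 0.20, limma adjusted p = 0.117). It did not pass with all libraries and was called lower without KO-NI 2 (-0.65, limma adjusted p = 0.0269). Bid and Casp9, both of the mitochondrial route, fell (-0.58 and -0.57), and neither was called without KO-I/R 3D 2. With TPM, or with only the KO libraries, no cell death gene was called lower.

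Genes of the matrix and of myofibroblasts rose. Of 51 matrix and fibrosis genes tested 35 rose (median 1.34). Col3a1, a fibrillar collagen, rose from 4.69 and 6.18 to 80.9 and 112 FPKM (4.12, SE 0.25, limma adjusted p = 0.000362), and Lox, which cross-links collagen, from 0.427 and 0.427 to 5.82 and 9.90 FPKM. Acta2, the smooth muscle actin of myofibroblasts, rose from 12.0 and 11.9 to 53.7 and 62.0 FPKM (2.26, SE 0.12). Tgfb1, the main profibrotic cytokine, rose from 2.13 and 4.36 to 9.60 and 13.8 FPKM (1.88, SE 0.34), while its receptor Tgfbr1 was uncalled at 18.5 and 12.1 against 17.3 and 15.8 FPKM (0.14, SE 0.20). Ccn2, a matrix protein induced by TGF-beta, rose from 23.7 and 29.3 to 45.1 and 40.3 FPKM (0.69, SE 0.16, limma adjusted p = 0.0152), a call that was lost without KO-I/R 3D 1 (0.61) and without KO-I/R 3D 2 (0.77). The matrix genes that fell were Bmp7, a tubule growth factor that opposes TGF-beta, and Col4a3 and Col4a4, chains of the glomerular basement membrane (-1.72, -1.36 and -1.36).

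The summed level of pericyte, fibroblast and myofibroblast markers was 137 and 171 FPKM before injury and 403 and 486 FPKM after it, with 14 of 20 higher and Myh11 and Ren1, of smooth muscle and renin cells, lower (1 called lower without KO-I/R 3D 2). The part of these cells in the matrix values was not tested. Protease genes were mixed at 18 higher and 4 lower of 30. Mmp2 rose from 2.45 and 2.83 to 11.6 and 13.3 FPKM (2.19, SE 0.18), and Timp3, the matrix-bound inhibitor, fell from 170 and 152 to 34.1 and 27.2 FPKM (-2.40, SE 0.18), opposite to Timp1. The other members that fell were Adam9 and the brush border meprins Mep1a and Mep1b. Of 52 keratin, tubulin, actin and annexin genes 39 rose, among them Tpm4 (19.2 and 18.2 against 80.0 and 90.0 FPKM) and Anxa3 (4.45 and 3.46 against 32.2 and 36.9 FPKM), and Tuba4a, Actn4 and Anxa11 fell. With TPM no member of this list was called lower.

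Of the injury genes that rose, S100a11 is shown because its promoter holds TGANTCA, the AP-1 site, on either strand at 2 places in capitals (RefSeq, GRCm38.p6).
S100a11 (chr3:93520246-93520545, plus strand): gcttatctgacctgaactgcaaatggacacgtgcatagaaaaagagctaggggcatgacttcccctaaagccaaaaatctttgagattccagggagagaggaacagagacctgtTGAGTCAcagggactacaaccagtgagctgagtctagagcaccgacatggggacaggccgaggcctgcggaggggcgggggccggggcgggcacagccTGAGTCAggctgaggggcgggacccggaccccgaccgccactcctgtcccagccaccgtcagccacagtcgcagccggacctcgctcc

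The motif stood in 5 of 25 injury genes that rose and had a promoter (20.0%), against 7.93% of all promoters.

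Most genes of fatty acid oxidation fell. Of 41 genes of the PPAR alpha program and mitochondrial beta oxidation tested, 34 fell and Cyp4a12a rose (median -1.50, and -1.51 without KO-NI 1). Without KO-NI 2 the count that rose was 2, and without KO-I/R 3D 2 it was 0. Ppara, the nuclear receptor that drives the program, fell from 32.9 and 25.9 to 4.33 and 3.47 FPKM (-2.88, SE 0.16, limma adjusted p = 0.000333). Its target Ehhadh, an enzyme of peroxisomal beta oxidation, fell from 367 and 338 to 58.8 and 44.2 FPKM (-2.79, SE 0.20). In mitochondria Hadh fell from 122 and 111 to 36.7 and 34.1 FPKM and Acads, for short chains, from 94.3 and 92.4 to 33.0 and 32.9 FPKM. Bdh1, a ketone body dehydrogenase, fell from 72.1 and 70.7 to 17.9 and 14.9 FPKM (-2.12, SE 0.13). Etfb, which passes their electrons on, was at 8.38 and 40.4 against 26.9 and 28.8 FPKM, so KO-I/R 3D lay between the KO-NI libraries and the gene was uncalled, although it was called higher without KO-NI 2 (1.72). Angptl4, another PPAR target, was uncalled too (-0.30, SE 0.25).

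The study singled out the pathways of the peroxisome and of valine, leucine and isoleucine breakdown on these samples, so neither list is independent evidence of its direction. The peroxisome list had 45 of 68 tested genes lower and none higher (median -0.85), and 41 held without either KO-NI library (1 rose without KO-NI 2). With TPM the peroxisome list had 31 genes lower and 1 higher (median -0.45). Of 43 genes of valine, leucine and isoleucine breakdown 39 fell (median -1.37), and 35 fell with TPM (median -0.98). Bcat1, the cytosolic first enzyme, rose, a call that was lost without KO-NI 1 or KO-I/R 3D 1. Pccb, a propionyl-CoA carboxylase chain, fell from 150 and 157 to 47.2 and 45.5 FPKM (-1.73, SE 0.11, limma adjusted p = 0.00039). Of 32 citrate cycle and pyruvate dehydrogenase genes 31 fell (median -1.15, and -1.06 without KO-NI 1), and Pdk4 was the uncalled one. Ogdh, of the oxoglutarate dehydrogenase complex, fell from 180 and 163 to 50.4 and 46.2 FPKM (-1.83, SE 0.11), and Sdha, shared with complex II, from 282 and 274 to 96.5 and 83.1 FPKM (-1.64, SE 0.12).

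Fewer nuclear genes of the respiratory chain and ATP synthase fell. With all libraries 27 of 77 fell and none rose (median -0.42). Without KO-NI 1 41 fell and the median was -0.60, and without KO-NI 2 30 fell, 13 rose and the median was -0.20. With TPM the median was -0.02. Atp5a1, the alpha chain of ATP synthase, fell from 1039 and 945 to 372 and 322 FPKM (-1.51, SE 0.15), and Uqcrc1 of complex III from 183 and 167 to 62.4 and 55.2 FPKM, and both were called with either KO-NI library left out. The small subunit Cox6a1 (700 and 1196 against 556 and 624 FPKM) had KO-NI libraries far apart, and its limma adjusted p was 0.093 with all libraries and 0.00686 without KO-NI 1.

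Genes of glucose production and nitrogen handling fell too. Of 28 genes of gluconeogenesis, fructose and glucose transport, 22 fell (median -1.51), and Pck2 and Akr1b3 rose, Pck2 at a limma adjusted p of 0.0435. The count that rose was 0 without KO-I/R 3D 2 and 1 without each other library except KO-NI 2. Fbp1, the gluconeogenic fructose bisphosphatase, fell from 839 and 923 to 203 and 142 FPKM (-2.37, SE 0.20, limma adjusted p = 0.000472), and Pcx, pyruvate carboxylase, from 130 and 189 to 29.7 and 26.3 FPKM (-2.48, SE 0.20). Ass1, which makes the precursor of arginine, fell from 832 and 983 to 156 and 102 FPKM (-2.84, SE 0.22). Of 33 NAD, tryptophan and arginine genes 18 fell and 5 rose, the latter being Nnmt, Arg1, Arg2, Sat1 and Aldh18a1 (3 without KO-I/R 3D 2). Nnmt, which methylates nicotinamide, went from 0.394 and 0.508 to 4.40 and 6.55 FPKM. In cholesterol synthesis and uptake 13 of 28 genes fell and 3 rose, a balance that turned to 6 and 8 with TPM. The export genes Abca1 and Abcg1 rose together with Apoe (1.23, 1.19 and 1.22, with 1 called higher without KO-I/R 3D 2).

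Transporters that define the proximal tubule fell in both injured libraries. Of 34 organic anion and cation transporters 29 fell and none rose (median -1.50). Slc22a7, the basolateral anion transporter OAT2, fell from 177 and 186 to 16.8 and 8.39 FPKM (-3.92, SE 0.35, limma adjusted p = 0.000577), and Slc13a3, the dicarboxylate transporter, from 203 and 201 to 47.9 and 38.7 FPKM (-2.23, SE 0.14). Slc13a1, the apical sulfate transporter, was uncalled at 59.7 and 47.1 against 65.5 and 70.2 FPKM. Of 27 amino acid transporters 17 fell and Slc7a2, Slc7a13 and Slc38a2 rose (1 called higher without KO-I/R 3D 1). Slc6a19, the main neutral amino acid transporter, fell from 134 and 124 to 23.4 and 13.1 FPKM (-2.88, SE 0.26), while its neighbour in function Slc6a18 was uncalled at 283 and 306 against 235 and 206 FPKM (-0.42, SE 0.13). The median of the amino acid transporter list was -1.05, and -0.86 without KO-NI 1.

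Promoters of 2 transporters that fell are shown because they hold GTTAAT, a core element of the tubule factor HNF1, in capitals on either strand (ATTAAC in reverse; RefSeq, GRCm38.p6).
Slc22a6 (chr19:8617746-8618045, plus strand): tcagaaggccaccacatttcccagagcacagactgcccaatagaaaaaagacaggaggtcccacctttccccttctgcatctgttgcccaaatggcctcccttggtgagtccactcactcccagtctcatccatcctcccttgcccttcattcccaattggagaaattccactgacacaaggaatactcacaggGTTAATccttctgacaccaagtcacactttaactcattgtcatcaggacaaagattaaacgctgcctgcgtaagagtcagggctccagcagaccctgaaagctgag
Slc3a1 (chr17:85028097-85028396, plus strand): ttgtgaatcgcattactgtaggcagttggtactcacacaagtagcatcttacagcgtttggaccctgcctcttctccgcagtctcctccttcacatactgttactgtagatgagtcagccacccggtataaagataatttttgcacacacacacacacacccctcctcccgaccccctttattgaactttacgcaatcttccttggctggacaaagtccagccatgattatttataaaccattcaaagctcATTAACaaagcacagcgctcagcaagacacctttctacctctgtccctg

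GTTAAT stood in 4 of 25 organic ion transporters that fell (16%) and in 4 of 15 amino acid transporters that fell (26.7%), against 7.20% of all promoters.

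Markers of the distal nephron fell as well as those of the proximal tubule. Of 48 proximal tubule markers 42 fell (median -1.56), and Slc7a13 rose, a call that was lost without KO-NI 1 or KO-I/R 3D 1. Of 14 thick ascending limb markers 12 fell (median -1.27). Egf, made by this segment, fell from 310 and 244 to 29.1 and 11.8 FPKM (-3.89, SE 0.39, limma adjusted p = 0.000712), and Slc12a1, the target of loop diuretics, from 648 and 383 to 151 and 89.6 FPKM (-2.10, SE 0.33). Umod fell less, from 2048 and 2024 to 1094 and 894 FPKM, and the tight junction genes Cldn16 and Cldn19 were uncalled (-0.01 and 0.19).

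In the distal convoluted and connecting tubule 13 of 15 markers fell (median -1.73), with Calb1, a calcium buffer, down from 237 and 164 to 35.2 and 18.3 FPKM (-2.95, SE 0.32). In principal cells 7 of 13 fell, Aqp3 from 103 and 93.8 to 22.0 and 22.7 FPKM (-2.13, SE 0.19), and Aqp2, the vasopressin-regulated water channel, was uncalled at 231 and 301 against 117 and 178 FPKM (-0.87, SE 0.31, limma adjusted p = 0.0604). In intercalated cells 15 of 18 fell (median -1.55, and 1 rose without KO-NI 2), with Slc26a4, the anion exchanger pendrin, at 50.5 and 38.5 against 13.4 and 7.45 FPKM. Of 22 genes of Klotho, vitamin D and phosphate handling 13 fell and 2 rose, Slc20a1 and Trpv6, with 1 called higher without KO-NI 2, KO-I/R 3D 1, KO-I/R 3D 2 or either WT-NI library. Kl, the anti-ageing co-receptor Klotho, fell from 156 and 126 to 29.9 and 17.2 FPKM (-2.62, SE 0.25). Of 29 nephron transcription factors 13 fell, among them Hnf4a (166 and 196 against 89.5 and 70.5 FPKM), and Pax8, Sox9 and Sox4, factors of the developing or repairing tubule, rose (0.95, 2.67 and 1.37). Sox9 rose from 0.407 and 0.405 to 2.95 and 3.30 FPKM. The median of the transcription factor list was -0.51, and -0.79 without KO-NI 1.

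Podocyte markers were split and endothelial markers mostly uncalled. Of 16 podocyte markers 7 fell (4 without KO-I/R 3D 2) and Tcf21 and Nes rose (1 called higher without KO-I/R 3D 1 or KO-I/R 3D 2). Of 21 endothelial markers 6 fell and none rose (3 rose without KO-NI 2). The endothelial sum was 265 and 320 FPKM before injury and 242 and 279 FPKM after it, so these groups overlapped. Kdr, the main VEGF receptor, fell from 13.8 and 12.2 to 3.44 and 3.45 FPKM (-1.89, SE 0.17, limma adjusted p = 0.000577), while Pecam1, a marker of all endothelium, was uncalled (-0.27, SE 0.13). Both medians changed sign with TPM, from -0.11 to 0.29 for endothelium and to 0.00 for podocytes, of which 6 rose and 4 fell on that scale.

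**Figure D2:**
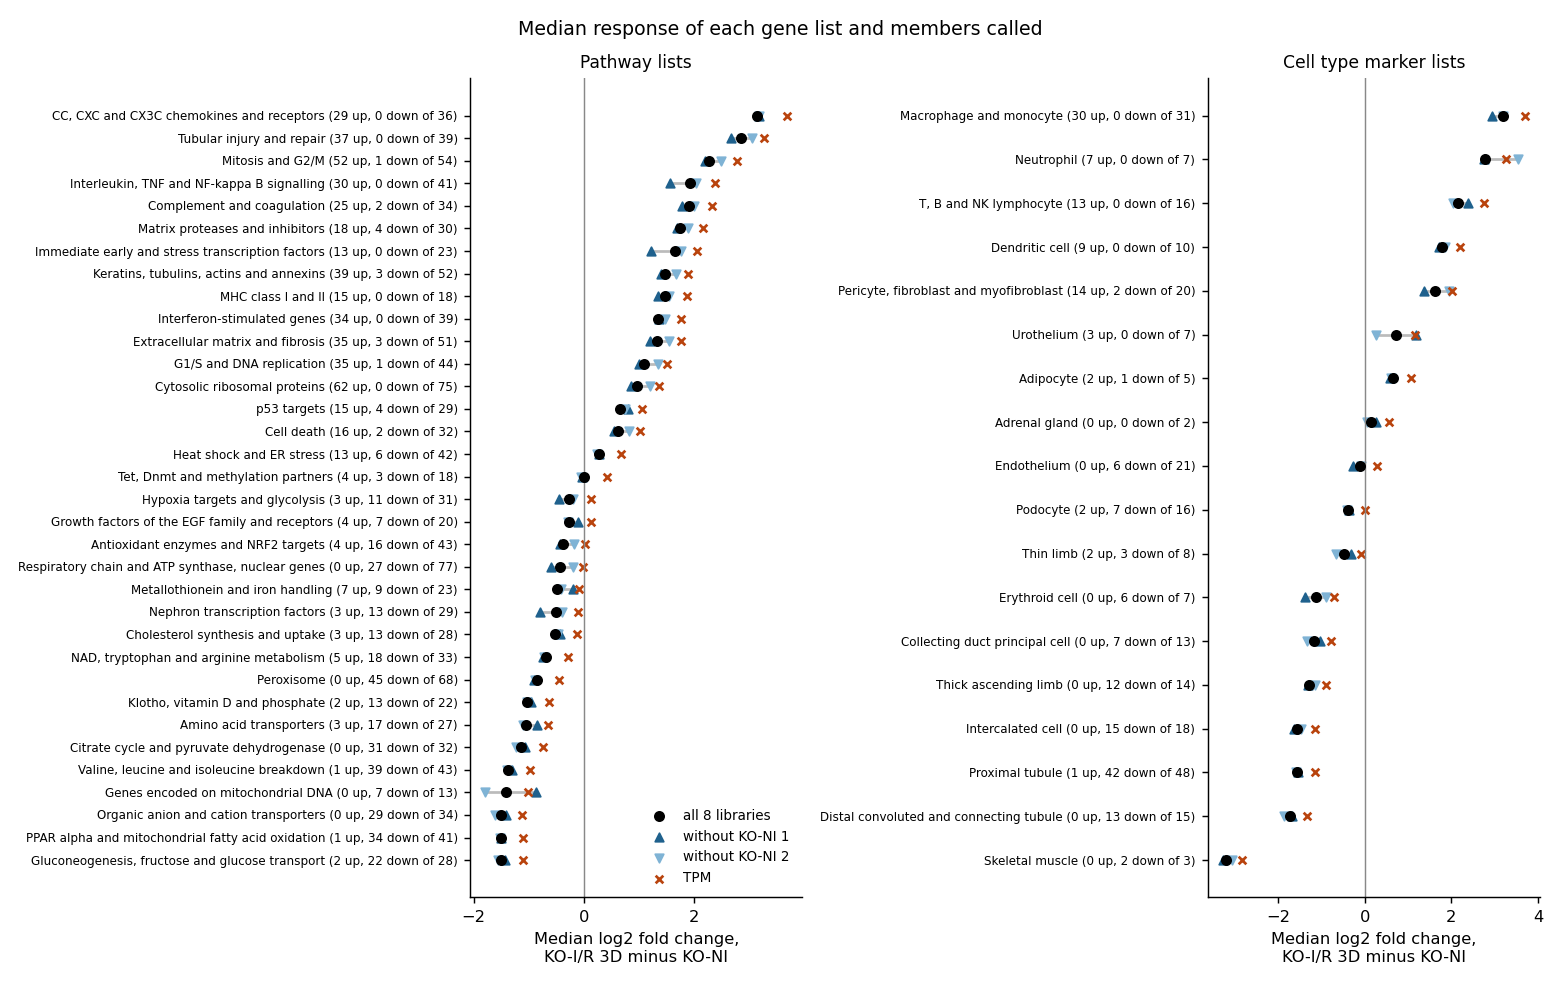
Median log2 fold change (KO-I/R 3D minus KO-NI) over the tested members of each gene list, for pathways on the left and cell type markers on the right, with all 8 libraries (black), without KO-NI 1 or KO-NI 2 (triangles) and with TPM (crosses). Numbers beside each name are members called higher and lower of those tested, and chemokines at 3.15 and gluconeogenesis at -1.51 mark the ends of the pathway panel. With TPM the medians of the EGF family, hypoxia, antioxidant, podocyte and endothelium lists lie above 0.

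Antioxidant genes did not move as 1 group. Of 43 tested 16 fell and 4 rose with a median of -0.37, and with TPM 8 fell and 10 rose with a median of 0.03. Cat, the peroxisomal catalase, fell from 417 and 400 to 152 and 118 FPKM (-1.61, SE 0.16, limma adjusted p = 0.000659), and Sod2, the mitochondrial superoxide dismutase, from 45.2 and 40.1 to 16.8 and 13.7 FPKM (-1.48, SE 0.15, limma adjusted p = 0.000727). Both calls held without KO-NI 1 (-1.58 and -1.40) and without KO-NI 2 (-1.64 and -1.57). The 4 that rose were Akr1b8, an aldose reductase (1.60 and 1.99 against 29.5 and 35.5 FPKM), Hmox1, heme oxygenase (10.03 and 13.4 against 41.2 and 65.2 FPKM), Prdx4 and G6pdx. Without KO-NI 2 the count that rose was 8. The abundant peroxidase Gpx1 was at 1042 and 1058 against 1080 and 1001 FPKM (-0.01, SE 0.15).

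Sod1, the cytosolic superoxide dismutase, rested on KO-NI 1. It was at 59.2 FPKM in KO-NI 1 and 117 FPKM in KO-NI 2, against 62.1 and 68.1 FPKM in KO-I/R 3D, so the injured libraries lay between the non-injured ones. With all libraries it was uncalled (-0.35, SE 0.29, limma adjusted p = 0.366). Without KO-NI 1 it was called lower (-0.85, limma adjusted p = 0.00471), and without KO-NI 2 it was at 0.14 (limma adjusted p = 0.413). After removal of the trend on GC share and length it was at -0.27 (limma adjusted p = 0.519). Sod2 held with either KO-NI library left out, and Sod1 was called in 1 of these settings.

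Growth factor, hypoxia and stress lists were split. Over all genes tested 17.9% rose and 19.4% fell, and counts near or below these shares only describe the members. Of 20 genes of the EGF family and related factors 7 fell and Hbegf, Nrg1, Pdgfa and Pdgfb rose, and Hbegf, a ligand of the EGF receptor, went from 2.83 and 2.94 to 8.79 and 8.68 FPKM (1.57, SE 0.19) as Egf itself fell. Of 31 hypoxia and glycolysis genes 11 fell and 3 rose, Hk2, Pfkfb4 and Slc16a3, with Hk2, the inducible hexokinase, at 0.134 and 0.110 against 2.33 and 3.82 FPKM (3.80, SE 0.47). The medians of both lists were -0.27 and changed sign with TPM, to 0.13 each, where the EGF list had 8 higher and 5 lower and the hypoxia list 5 each. Of 42 heat shock and ER stress genes 13 rose and 6 fell (7 rose without KO-I/R 3D 2). Hspb1, a small actin-protecting chaperone, rose from 7.83 and 13.5 to 76.5 and 128 FPKM (3.26, SE 0.37, limma adjusted p = 0.00102), while Hspd1, the mitochondrial chaperonin, fell from 245 and 218 to 130 and 104 FPKM (-0.99, SE 0.15).

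Of 23 metallothionein and iron genes 7 rose and 9 fell, which turned to 9 and 5 with TPM. Among them were Aco1, an iron-sensing aconitase, down from 128 and 117 to 48.5 and 44.5 FPKM (-1.40, SE 0.11, limma adjusted p = 0.000439) and Cp, the ferroxidase ceruloplasmin, up from 10.3 and 8.66 to 31.2 and 39.0 FPKM. Among 18 genes of the DNA methylation machinery 4 rose (Dnmt1, Uhrf1, Gadd45a and Apobec1) and 3 fell, Idh1 and Idh2 among them, with a median of 0.01 (7 rose and 1 fell with TPM). These counts are close to the shares of all genes tested, 17.9% and 19.4%, and the members are given as values. The count that rose was 2 without KO-NI 1, KO-I/R 3D 1 or KO-I/R 3D 2, and the median was -0.04 without KO-NI 1 and -0.05 without KO-NI 2. Uhrf1, which brings Dnmt1 to replicated DNA, rose from 1.83 and 2.65 to 9.05 and 11.8 FPKM (2.17, SE 0.31), and Idh2, a mitochondrial source of the TET cofactor oxoglutarate, fell from 231 and 252 to 95.7 and 85.2 FPKM (-1.42, SE 0.14). Tet2 and Tet3 were uncalled, at 6.75 and 6.86 against 6.65 and 3.90 FPKM and at 3.47 and 4.27 against 2.91 and 3.26 FPKM.

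Genes encoded on mitochondrial DNA and those of the cytosolic ribosome moved in opposite directions. Both counts depended most on KO-I/R 3D 2, and that of the former also on KO-NI 1. All 13 mitochondrial genes were lower on average after injury and 7 were called with all libraries, 3 without KO-NI 1, 9 without KO-NI 2, 1 without KO-I/R 3D 2 and 4 without any one of the WT libraries. Their median moved from -1.42 to -0.87 without KO-NI 1. mt-Nd5 of complex I was at 6915 and 3998 against 2107 and 1417 FPKM (-1.60, SE 0.32, limma adjusted p = 0.00786), lost without KO-I/R 3D 2 (-1.32). mt-Co3 of complex IV was at 2511 FPKM in KO-NI 1, 421 FPKM in KO-NI 2, and 216 and 115 FPKM after injury (-2.71 with all, -1.42 and uncalled without KO-NI 1). Of 75 cytosolic ribosomal protein genes 62 rose, 61 without KO-NI 1 and 35 without KO-I/R 3D 2 (median 0.96, and 0.86 without KO-NI 1). Rpl39 rose from 79.6 and 77.0 to 207 and 201 FPKM (1.38, SE 0.11, limma adjusted p = 0.000472) with KO-NI libraries that were alike. Rps28 was at 3.77 FPKM in KO-NI 1 and 48.5 FPKM in KO-NI 2 against 66.3 and 101 FPKM, and was uncalled with all libraries. Ribosomal genes have many pseudogene copies, so their reads may be shared.

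How far the response depended on KO-NI 1 was counted over all genes. Without KO-NI 1, 2702 genes rose (17.3%) and 2958 fell (18.9%), with the lone KO-NI library assumed to vary like the other groups. Of the 2808 rises 2294 (81.7%) were called again, and of the 3043 falls 2471 (81.2%). Without KO-NI 2, 3732 rose (23.8%) and 3640 fell (23.3%), and 91.0% and 90.6% of the calls were repeated. No called gene changed the sign of its fold change in either setting, and 2111 rises (75.2%) and 2248 falls (73.9%) held in both. The 408 rises and 487 falls that appeared only without KO-NI 1 included none that had been called the other way.

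**Figure D3:**
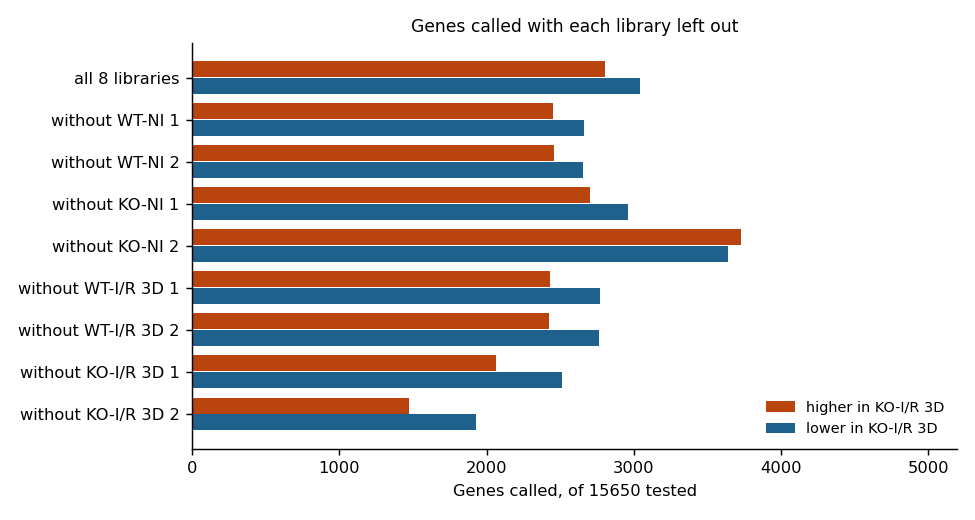
Genes that rose and fell with injury in KO (horizontal axis, number of genes of 15650 tested) with all 8 libraries and with each library left out in turn. Leaving out KO-I/R 3D 2 gave the fewest calls, 1471 and 1929, and leaving out KO-NI 2 the most, 3732 and 3640.

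The genes at stake differed in base composition. Over 15143 genes with a matched transcript, split into 5 equal groups by GC share, the median of KO-NI 1 minus KO-NI 2 ran from 0.43 in the group lowest in GC through 0.04 to -0.44 in the highest. The same medians ran from 0.16 to -0.17 between the KO-I/R 3D libraries and from 0.05 to -0.07 between the WT-NI libraries. KO-I/R 3D minus KO-NI 1 ran from -0.28 to 0.41 across these groups, and KO-I/R 3D minus KO-NI 2 from 0.14 to -0.08. Calls lost or gained without KO-NI 1 are picked by the difference between KO-NI 1 and KO-NI 2, which itself ran with GC share. The order of their GC shares therefore follows from that choice and is only a description. Rises that were lost without KO-NI 1 (514) had a median GC share of 52.9%, those kept 50.5%, and those that appeared 43.8%. For falls the order was reversed, at 46.4% for the 572 lost, 50.7% for those kept and 55.7% for those that appeared. After removal of the trend on GC share and length from each library, 2685 genes rose and 3436 fell, and 86.7% and 90.1% of the calls among matched genes were repeated with none in the other direction.

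**Figure D4:**
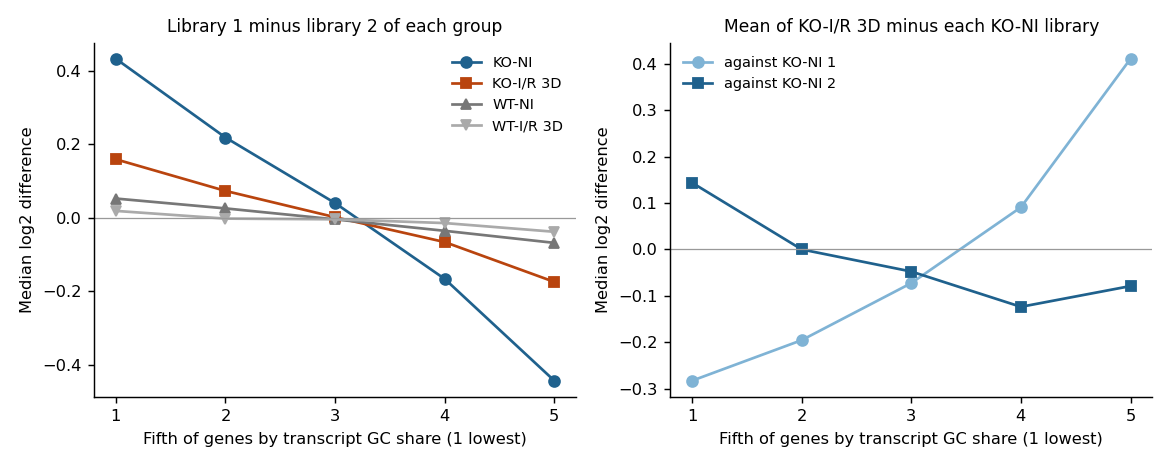
Median log2 difference between libraries in each of 5 equal groups of genes by GC share of the transcript, from the lowest to the highest. The line of KO-NI 1 minus KO-NI 2 falls from 0.43 to -0.44, while the pairs of the other groups stay within 0.16 and -0.17.

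Named genes show what was lost and gained. Cebpb, a transcription factor of the acute phase, was at 5.95 and 23.7 FPKM in KO-NI against 37.0 and 61.3 FPKM (1.99, SE 0.61, limma adjusted p = 0.0377) and had a log2 fold change of 1.00 without KO-NI 1 (limma adjusted p = 0.0764). Its call was also lost with each other library left out except KO-NI 2. Rtn4rl2 and Ssbp4 also lost their calls without KO-NI 1 (2.97 against 1.58 and 1.72 against 0.85). Appearing without KO-NI 1 were rises of Jchain, the joining chain of secreted antibodies, at 16.6 and 3.82 against 48.4 and 12.1 FPKM, and falls of Fabp1, a fatty acid carrier of the proximal tubule, at 2.56 and 15.4 against 1.45 and 3.13 FPKM, and of Col27a1 at 6.97 and 22.1 against 5.04 and 4.73 FPKM. Irx3, a nephron patterning factor, turned from 0.08 to -0.55 without KO-NI 1 and to 0.70 without KO-NI 2 and was called in both settings, in opposite directions (limma adjusted p of 0.0272 and 0.0088).

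Some genes were low in KO-NI 1 alone. Atp5k, a small ATP synthase subunit, was at 10.2 FPKM in KO-NI 1, 182 FPKM in KO-NI 2, and 122 and 121 FPKM after injury, and Rpl23a at 5.76, 92.7, 195 and 221 FPKM. Both were uncalled with all libraries (limma adjusted p of 0.329 and 0.0582), and without KO-NI 2 they were called higher at 3.56 and 5.15. Genes chosen from the WT libraries alone were also compared between KO-NI 1 and KO-NI 2, without adjustment for GC share. The part of the GC trend between these libraries in the values below was not tested. Of 1467 genes that rose over 2-fold in WT injury, 37.2% were higher in KO-NI 1 than in KO-NI 2 (median difference -0.15), against 50% of all genes. Of 628 that fell, 57.0% were higher in KO-NI 1 (median 0.09). The rise of the first set was 2.19 (median) against KO-NI 1 and 1.89 against KO-NI 2.

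Set beside WT, the KO response was shared in most of the WT calls, and with all libraries the test of the difference called no single gene. In WT, 1393 genes rose (8.9%) and 1322 fell (8.45%) after the same injury. Of these 1292 rises and 1246 falls were shared, which is 46.0% and 41.0% of the KO calls and 92.8% and 94.3% of the WT calls. Among the KO calls, 1 rise and 1 fall were called in the opposite direction in WT. Over the 2808 genes that rose in KO the median was 1.34 in KO and 0.84 in WT, and over the 3043 that fell it was -1.02 and -0.59. Genes chosen by their KO calls tend to have the larger value in KO, so these medians are descriptions. The test of the difference itself, KO response minus WT response, called 0 genes (0.0%). Its smallest limma adjusted p was 0.390, and 563 genes with a higher and 1004 with a lower response in KO had an unadjusted p under 0.05. Limma voom on recovered reads also called 0 (1835 at an unadjusted p under 0.05). A fit without KO-NI 2 has KO-NI 1, the library that stood apart, as its only non-injured KO library. Its calls cannot be told apart from the traits of that library. The limma test on log2(FPKM + 0.1) called 185 higher and 53 lower without KO-NI 2, and none without KO-NI 1.

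The genes with the smallest p of the difference are given as values. Ace, the angiotensin-converting enzyme of the brush border, was at 71.7 and 72.8 against 12.0 and 11.8 FPKM in KO, a log2 fold change of -2.59 against -1.47 in WT. Col5a2, a fibrillar collagen, was at 2.80 and 2.67 against 7.94 and 9.37 FPKM in KO (1.62) and uncalled in WT (-0.06, limma adjusted p = 0.803). Steap1, an iron reductase of epithelium, had 2.27 in KO and 0.83 in WT, and Bdh1 -2.12 and -0.73. These genes had KO-NI libraries close to each other, and after adjustment over all genes none passed. List medians in KO and WT were 3.19 and 2.29 for macrophage markers, -1.56 and -0.86 for proximal tubule markers, -1.27 and -0.19 for thick ascending limb markers, and 2.29 and 2.23 for mitosis genes. Whether these list medians differed was not tested.

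**Figure D5:**
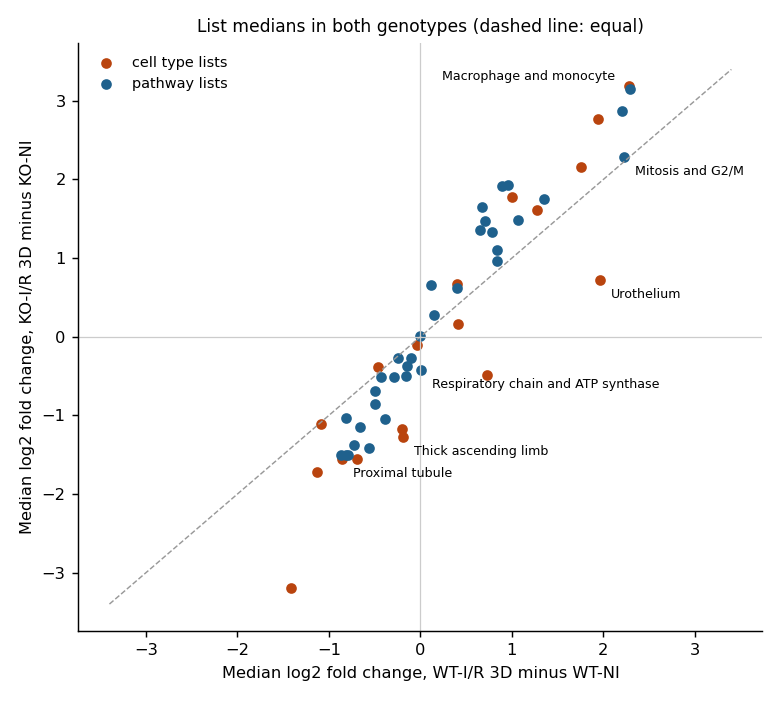
Median log2 fold change after injury of each gene list in KO (vertical axis) against WT (horizontal axis), with 1 point for each pathway list (blue) or cell type list (orange) and a dashed line where both are equal. Macrophage markers lie at 3.19 against 2.29 and mitosis genes at 2.29 against 2.23, and urothelial markers lie below the line at 0.72 against 1.96.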

How the data were processed

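Poly-T selected mRNA was sequenced from 8 libraries of mouse kidney, 2 for each of 4 groups, each a pool of RNA from 3 mice. Reads were aligned with HISAT2 2.0.5 to GRCm38.p6, per the submitters' processing notes, and the authors deposited FPKM per gene. The counting program and the use of strand are not given in the sources used here, so genes that overlap or share near-identical copies are uncertain. Whole reads were recovered from FPKM and gene length for 100% of values (tolerance 0.001), and gave 13961281 to 18480858 reads per library, whose counting error is the least error a value can have. The table's gene positions are not those of GRCm38.p6 and were not used. No per-sample column was left unassigned.

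Genes with an FPKM of 1 or more in at least 2 of the 8 libraries (15650) were fitted as log2(FPKM + 0.1) on 4 group means with limma 3.58.1 (trended variance, R 4.3.3), with Benjamini-Hochberg adjustment over all of them. Calls were two-sided and needed a log2 fold change beyond 0.5 in either direction at an adjusted p below 0.05. The difference of responses was the interaction term. Tables and figures were made with Python 3.11.15, numpy 2.4.6, pandas 2.3.3 and matplotlib 3.10.9. The fit was tested on simulated data. Alternatives changed the pseudocount, filter, scaling, samples, variance model, weights, block, thresholds and unit, and left out each library in turn. Removal of the GC and length trend and TPM without mitochondrial genes were chosen after seeing the data.

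Named genes were those the study names, the 10 largest rises and falls that were called with and without either KO-NI library, in each list at most 5 called members (by adjusted p) and 3 uncalled members (by level), the largest calls lost or gained without KO-NI 1, the 6 genes highest and 6 lowest in KO-NI 1 against KO-NI 2, and the 5 in each direction with the smallest p of the difference. A few genes within the rule are not reported here, and others were chosen after their values were seen. The gene lists and comparisons were chosen with earlier results of these data known. Promoters and motifs came from the RefSeq table of GRCm38.p6, with the first listed promoter of each gene.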

Additional observations from a re-analysis of the deposited data

How the results depend on the processing

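The counts of 2808 genes higher and 3043 lower were within 1.5 times under a pseudocount of 1, both other filters, median-of-ratios scaling, no variance trend, no fold threshold, removal of the GC and length trend, and limma voom on recovered reads (3622 and 3472). Some of these fits tested other sets of genes than the 15650 of the main fit. These were 31476 with no filter, 14828 with the filter on the KO libraries, 15143 with the trend removed and 18252 with voom. They moved further with TPM (5076 higher, 1580 lower), with only the KO libraries (1700 and 1788), with library weights (1802 higher), with an absolute log2 fold change over 1 (1580 lower) and with TPM without mitochondrial genes (1962 lower). With 1 library left out they ranged from 1471 to 3732 higher and from 1929 to 3640 lower. The difference of responses ranged from 0 to 185 higher and from 0 to 53 lower with 1 library left out, and was 4 higher with no variance trend. The correlation of deviations between libraries of the same number was 0.17 between the KO groups and 0.03 to 0.06 between the others. Whether libraries of the same number shared a batch or mice in the KO groups was not tested. The replicate block gave 2934 higher and 3170 lower. The planned quasi-likelihood count test was not run. Of 413 named genes tested 255 were called, and no called one changed sign. Calls lost were 24 without KO-I/R 3D 2, 12 without KO-I/R 3D 1, 15 without KO-NI 1, 6 without KO-NI 2, 24 with library weights, 17 with only the KO libraries, 12 with TPM and 4 with the replicate block. Irx3 was at 0.08 and ranged from -0.55 without KO-NI 1 to 0.70 without KO-NI 2. List medians that changed sign with TPM were the EGF family (0.13), hypoxia (0.13), antioxidant (0.027), podocyte (0.0037) and endothelium lists (0.29, and 0.15 without mitochondrial genes). The Tet and Dnmt list, at 0.01, ranged from -0.053 without KO-NI 2 to 0.014 without a WT-NI library, and was also below 0 without KO-NI 1 (-0.04), KO-I/R 3D 1 (-0.01) or KO-I/R 3D 2 (-0.04). The causes were not tested.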

Other observations

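Red blood cell genes were lower after injury. Of 7 erythroid genes tested of 10 listed, 6 fell (3 without KO-I/R 3D 1). Alas2, the erythroid enzyme that starts heme synthesis, was at 3.91 and 3.49 FPKM in KO-NI and at 0.644 and 0.779 FPKM in KO-I/R 3D (log2 fold change -2.23, SE 0.21, limma adjusted p = 0.000626). Slc4a1, the anion exchanger of red cells and of intercalated cells, fell from 16.6 and 15.9 to 4.02 and 2.16 FPKM. The globin Hba-a1 fell from 87.6 and 133 to 49.0 and 53.6 FPKM, and Hba-a2, a near-identical copy that may share its reads, from 43.3 and 36.5 to 16.6 and 20.2 FPKM.

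Markers of fat were mixed. The summed level of the adipocyte list was 107.5 and 75.9 FPKM in KO-NI and 41.2 and 57.7 FPKM after injury. In KO-NI most of it was Lpl, lipoprotein lipase, which other cell types also make and which fell from 94.2 and 61.4 to 19.1 and 13.4 FPKM. Car3 and Fabp4, a carbonic anhydrase and a fatty acid carrier, rose (1.75 and 0.67), and Fabp4 lost its call without KO-NI 1, KO-NI 2, KO-I/R 3D 2 or either WT-NI library. The adipocyte-defining genes Adipoq, Lep and Plin1 were listed at 0 in both KO-NI libraries, and Adipoq at 0.291 and 0.626 FPKM in KO-I/R 3D. Cfd, the fat-made complement factor adipsin, was at 0.0962 and 0.237 FPKM in KO-NI, at 0.933 FPKM in the first injured library and at 11.9 FPKM in the second, and Ucp1, of brown fat, was listed at 0 in the first injured library and at 1.82 FPKM in KO-I/R 3D 2. Their part in the other results was not tested. Of the muscle list, Pvalb, which also marks the distal convoluted tubule, fell from 25.4 and 30.3 to 5.29 and 1.61 FPKM, while Ckm and Acta1 were at 0 in KO-NI.

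In the thin limb list 2 genes rose and 3 fell of 8 tested. Cldn4, a tight junction claudin, rose from 12.4 and 15.0 to 35.5 and 63.6 FPKM (1.79, SE 0.29), and Aqp1, a water channel shared with the proximal tubule, fell from 499 and 444 to 202 and 177 FPKM (-1.32, SE 0.16). Bst1 rose as well, a call that was lost when KO-NI 2, KO-I/R 3D 2 or either WT-I/R 3D library was left out. Of 7 urothelial genes Krt20, Krt5 and Psca rose (1 without KO-I/R 3D 1 or KO-I/R 3D 2), and the uroplakin Upk3a was at 3.41 and 2.20 against 3.46 and 2.50 FPKM.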
